A study of Mus musculus with 2 samples.

Results

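Described here are 9 genes of the actin cytoskeleton of podocyte foot processes, followed across glomerular cell classes and among podocytes. The genes were chosen by name for their known part in foot processes, with earlier results of these data known, and each of the 9 symbols matched 1 of the 31058 features in the count matrices. They are Synpo, the alpha-actinins Actn4 and Actn1, the formin Inf2, the myosins Myo1e and Myh9, and the small GTPase regulators Arhgap24, Arhgdia and Rhpn1.

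Foot processes are the interlocking extensions by which podocytes cover the glomerular capillary, and the slit diaphragm spans the gap between neighbours. Each process holds a bundle of parallel actin filaments, crosslinked by alpha-actinin and synaptopodin, with contractile myosin nearer the cell body. Small GTPases such as RhoA and Rac1 set the balance between stable and motile actin, and inherited defects in several of these genes cause proteinuric kidney disease in people.

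Glomerular cells were taken from 2 C57Bl/6 mice that carried Pax2.rtTA;TetO.Cre;R26.Confetti, a doxycycline-inducible lineage tracer in which the Pax2 promoter drives the transactivator. Both mice had doxycycline at 19 days of age and were killed at 30 days, and both are labelled healthy. The mice gave 1 droplet-based 3′ library each, 1 titled female and 1 titled male, so no comparison between them has a replicate. The labels do not say which cells carried the recombined reporter.

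Sex-linked genes went against both titles. The female-specific transcript Xist was at 0.621 CPM (counts per 1000000 UMIs, the unique molecular identifiers that mark single transcripts) in the library labelled female and 1426 CPM in that labelled male. Y-linked genes summed to 201 CPM in the library labelled female and 0.0346 CPM in that labelled male. The names in the titles are kept below only to tell the libraries apart, and no sex is drawn from them.

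The libraries held 5233 and 4974 barcodes with 67648465 and 57841860 UMIs, and 4909 and 4442 cells were kept, at medians of 10672 and 9616 UMIs. Only 10 barcodes occurred in both libraries. Clustering without the 9 genes and without the other actin genes described below gave 19 clusters. Podocyte-like cells filled 8 of them, with 14 podocyte markers detected in each, and made up 3808 cells in the library labelled female, 3277 in that labelled male. In a further cluster of 431 and 523 cells all 14 podocyte markers were also detected, but haemoglobin genes led it, so it stayed unnamed and enters no podocyte value. When clusters were named by marker score alone, which makes it podocyte-like, each class difference of the 9 genes kept its direction and its side of the threshold. The parietal epithelial-like cells numbered 72 and 49 in the libraries labelled female and male, the mesangial-like 241 and 175, the endothelial-like 197 and 172, and the tubule-like 73 and 115. Cldn1 was at 228 and 216 CPM in parietal-like cells, Pdgfrb at 763 and 933 CPM in mesangial-like cells, Cdh5 at 707 and 711 CPM in endothelial-like cells and Umod at 4171 and 3232 CPM in tubule-like cells.

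Podocyte RNA was present in every other class. Nphs1, the slit diaphragm gene for nephrin, reached in the libraries labelled female and male 6.13% and 2.96% of its podocyte-like level in parietal-like cells, 14.6% and 5.12% in mesangial-like cells, 11.9% and 15.7% in endothelial-like cells and 19.2% and 15.2% in tubule-like cells. The signal sat in a minority of cells. In mesangial-like cells, 13.3% and 3.43% of cells held 2 or more UMIs of Nphs1, and in tubule-like cells 35.6% and 24.3% did. Class differences of the 9 genes, and those of the higher genes of the actin lists, are therefore given with all cells and also without these cells of the other classes. The second value rests on a choice of cells by a podocyte gene, which by its construction lowers any gene that travels with it.

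The promoters of Myo1e, Inf2 and Actn4 are printed because they carry a CArG box or TEAD letters, and that of Actn1 because the class patterns of the 2 alpha-actinins differed. Each is the window from 250 bases before to 50 after a RefSeq transcription start in GRCm38.p6, read on the gene's own strand. Capitals mark the CArG box, the serum response factor motif, and GGAATG or its reverse complement CATTCC, the TEAD motif. The windows are chr9:70207100-70207399 on the plus strand for Myo1e, chr12:112588517-112588816 on the plus strand for Inf2, chr7:28962283-28962582 on the minus strand for Actn4 and chr12:80260314-80260613 on the minus strand for Actn1.
Myo1e promoter: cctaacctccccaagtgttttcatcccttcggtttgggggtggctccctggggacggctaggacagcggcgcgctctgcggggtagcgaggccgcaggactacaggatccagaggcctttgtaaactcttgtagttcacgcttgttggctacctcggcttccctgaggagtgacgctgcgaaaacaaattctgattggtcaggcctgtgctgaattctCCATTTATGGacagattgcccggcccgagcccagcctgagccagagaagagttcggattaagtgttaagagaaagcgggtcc
Inf2 promoter: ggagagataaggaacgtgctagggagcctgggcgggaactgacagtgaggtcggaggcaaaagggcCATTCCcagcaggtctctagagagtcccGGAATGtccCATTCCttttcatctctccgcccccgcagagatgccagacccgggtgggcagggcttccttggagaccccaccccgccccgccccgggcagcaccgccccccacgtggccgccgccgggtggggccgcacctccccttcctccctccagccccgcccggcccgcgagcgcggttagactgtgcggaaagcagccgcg
Actn4 promoter: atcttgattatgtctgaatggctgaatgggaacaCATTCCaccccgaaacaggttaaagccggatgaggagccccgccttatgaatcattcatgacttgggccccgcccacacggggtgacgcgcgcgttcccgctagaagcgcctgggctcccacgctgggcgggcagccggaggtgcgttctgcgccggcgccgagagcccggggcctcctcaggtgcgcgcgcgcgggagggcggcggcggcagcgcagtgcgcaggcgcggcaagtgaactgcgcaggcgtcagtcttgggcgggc
Actn1 promoter: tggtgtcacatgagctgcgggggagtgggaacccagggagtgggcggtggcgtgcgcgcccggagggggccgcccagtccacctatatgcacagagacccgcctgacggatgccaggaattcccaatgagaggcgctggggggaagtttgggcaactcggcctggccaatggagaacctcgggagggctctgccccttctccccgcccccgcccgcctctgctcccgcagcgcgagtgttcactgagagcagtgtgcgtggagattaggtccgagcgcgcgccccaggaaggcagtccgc

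The CArG box lay 32 bases before the start of Myo1e and in no other of the 8 windows that the table holds for 6 of the genes, and 1.63% of all 32851 windows held it. TEAD letters occurred 3 times in the printed Inf2 window, at 184, 156 and 147 bases before the start, and 1 time in the Actn4 window, 216 bases before it, against 14.7% of all windows with at least 1. GGGCGG or CCGCCC, the Sp1 motif, was in 7 of the 8 windows, those of 5 genes, and in 35.7% of all windows. TGCTGA or TCAGCA, a MAF motif, was in the windows of Myo1e and Myh9 and in 19.5% of all. CAGCTG, the E-box, and TAATTA or its reverse complement, the LIM homeodomain motif, were in none of them, and in 16.3% and 5.29% of all windows. These are matches of letters on either strand within 300 bases. Inf2 and Arhgdia have 2 windows each, those of Inf2 overlap, and both hold the TEAD letters. Synpo, Arhgap24 and Rhpn1 have no entry in the table.

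Across the classes the 9 genes fell into 3 patterns. Synpo, Rhpn1, Arhgap24 and Inf2 were higher in podocyte-like cells than in each of the other 4 classes. Actn4, Myo1e, Myh9 and Arhgdia were at similar or higher levels in mesangial-like cells, and of these Myh9 was higher there past the threshold. Actn1 was higher in parietal-like cells than in podocyte-like cells, and did not differ past the threshold between podocyte- and mesangial-like cells. All 9 genes passed the filter on low counts. Against parietal-like cells 7 of the 9 were higher at an adjusted p under 0.05 in edgeR's quasi-likelihood test, where 24.4% of all 12348 genes were, and 1 was lower, where 27.0% were. Against mesangial-like cells 4 were higher (28.8% of all genes) and 1 lower (24.2%), which is near the background. Against endothelial-like cells 7 were higher (29.8%) and none lower (25.2%), and against tubule-like cells all 9 were higher (27.9%) and none lower (28.1%). The median log2 difference of the 9 genes was 2.15, 0.11, 1.58 and 1.62 against parietal-, mesangial-, endothelial- and tubule-like cells, beside 0.04, 0.13, 0.14 and 0.05 over all genes. Totals in place of TMM scaling moved the median of all genes by −0.22, −0.19, −0.16 and −0.02, and DESeq2 size factors by −0.14 to −0.17, so differences of that size turn sign with the scaling. Without the cells holding podocyte RNA the counts of members in each direction were equal to these, with 22.9%, 26.6%, 27.6% and 27.9% of 11925 genes higher and 25.7%, 26.0%, 27.6% and 29.3% lower.

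**Figure D1:**
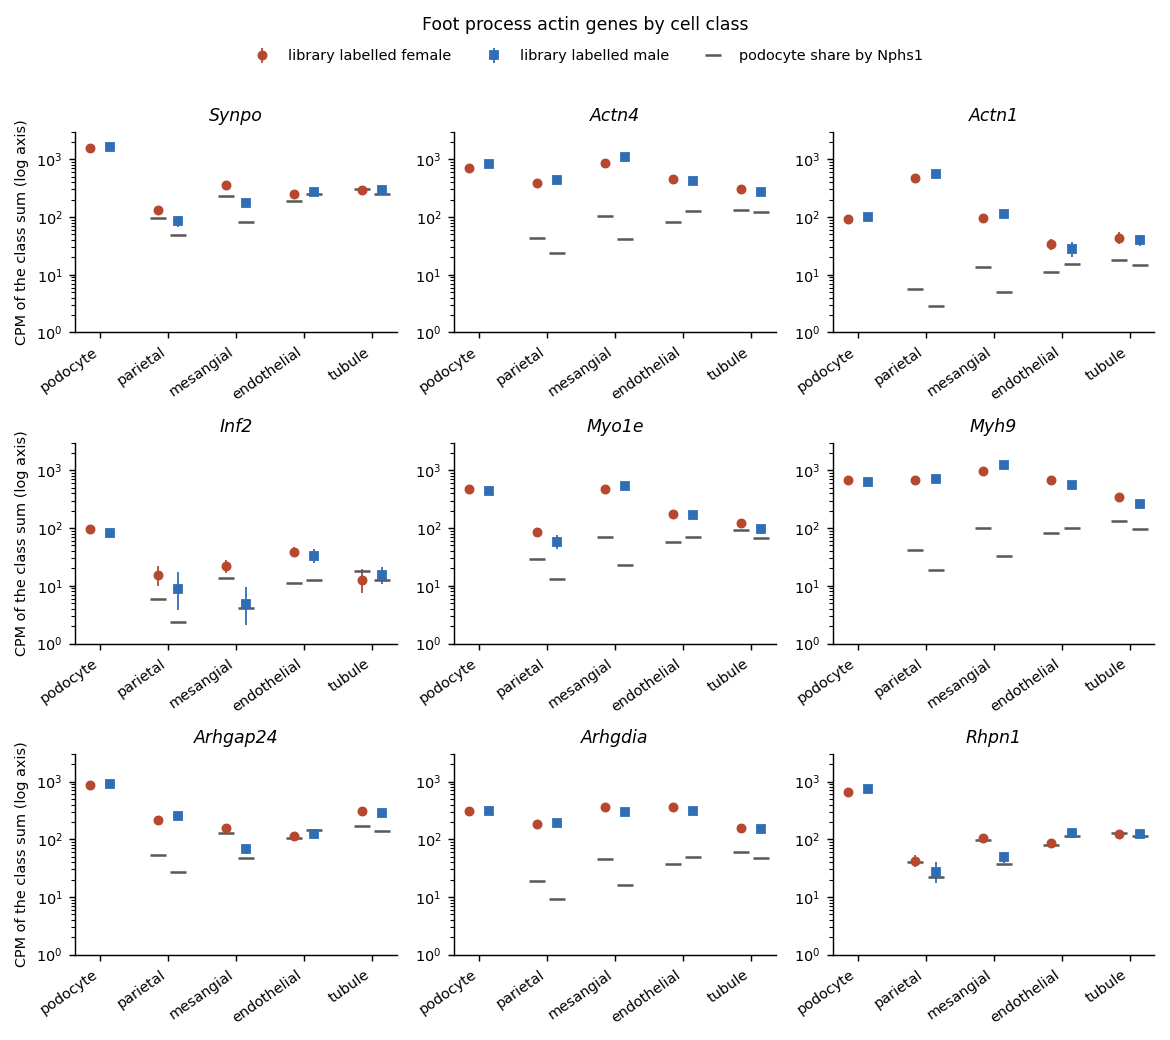
Level of each gene in CPM (log axis) in the summed podocyte-, parietal epithelial-, mesangial-, endothelial- and tubule-like cells of the libraries labelled female (circles) and male (squares), with exact 95% Poisson intervals. Grey dashes mark the level that the Nphs1 UMIs of the class would bring with them. Synpo and Rhpn1 lie near the dashes in tubule-like cells, while Actn1 in parietal-like cells, at 482 and 556 CPM, lies far above them.

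Synpo, which encodes synaptopodin, an actin-bundling protein that also protects RhoA from breakdown, was at 1585 and 1621 CPM in podocyte-like cells of the libraries labelled female and male. It was at 132 and 84.5 CPM in parietal-like, 354 and 174 CPM in mesangial-like, 251 and 271 CPM in endothelial-like and 290 and 296 CPM in tubule-like cells. The podocyte-like values stood apart from the rest. The mesangial-like values spanned those of the endothelial- and tubule-like cells, which did not overlap with each other. The log2 difference was 4.12 (SE 0.35) against parietal-, 2.83 (SE 0.32) against mesangial-, 2.78 (SE 0.32) against endothelial- and 2.47 (SE 0.32) against tubule-like cells, with edgeR adjusted p between 0.000271 and 0.00136. Without the cells holding podocyte RNA these became 4.88, 3.88, 4.83 and 7.83. In tubule-like cells Synpo then stood at 4.16 and 8.80 CPM, so nearly all of its level there lay in cells with 2 or more UMIs of Nphs1. In mesangial-like cells 131 and 109 CPM remained. Among cells thinned to 3000 UMIs, 98.1% of podocyte-like cells in each library held a Synpo UMI, against 32.9% and 22.6% of tubule-like cells (99.6% and 99.7% against 39.7% and 34.8% at full depth, where medians were 11017 and 10034 UMIs in podocyte-like and 15621 and 17251 in tubule-like cells).

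Rhpn1, which encodes rhophilin-1, an adaptor that binds GTP-loaded RhoA, was at 659 and 738 CPM in podocyte-like cells. It was at 41.7 and 27.1 CPM in parietal-like, 106 and 48.6 CPM in mesangial-like, 86.0 and 129 CPM in endothelial-like and 125 and 124 CPM in tubule-like cells. These outside levels were 0.989 to 1.28 times what the Nphs1 UMIs of each class would bring with them. The log2 difference was 4.53 (SE 0.46), 3.34 (SE 0.40), 2.87 (SE 0.39) and 2.51 (SE 0.39) against parietal-, mesangial-, endothelial- and tubule-like cells, with edgeR adjusted p of 0.000713 to 0.00337. Without the cells holding podocyte RNA, Rhpn1 was at no more than 14.8 CPM in any of the 4 classes and the differences were 6.16, 6.81, 6.57 and 6.78. Against parietal-, mesangial- and endothelial-like cells these were the largest differences of the 9 genes.

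Arhgap24 encodes a GTPase-activating protein that turns Rac1 off and is disrupted in some families with focal segmental glomerulosclerosis. It was at 872 and 918 CPM in podocyte-like cells, 219 and 255 CPM in parietal-like, 158 and 67.0 CPM in mesangial-like, 112 and 125 CPM in endothelial-like and 310 and 282 CPM in tubule-like cells. Podocyte-like cells were highest, parietal- and tubule-like cells came next and did not overlap with the mesangial- and endothelial-like values. The log2 difference was 2.15 (SE 0.36), 3.18 (SE 0.38), 3.08 (SE 0.38) and 1.62 (SE 0.35) against parietal-, mesangial-, endothelial- and tubule-like cells, with edgeR adjusted p of 0.00124 to 0.0122. Without the cells holding podocyte RNA the differences were 2.23, 4.64, 6.53 and 2.31. Arhgap24 then remained at 201 and 249 CPM in parietal-like and at 149 and 210 CPM in tubule-like cells, against 12.05 and 7.29 CPM in endothelial-like cells. It was thus the member of the podocyte-high group that the other nephron epithelia also held. With all cells it was at 368 and 336 CPM in thick ascending limb-like cells and at 92.1 and 109 CPM in proximal tubule-like cells. Nphs1 was at 23.7% and 19.2% of its podocyte-like level in the former and 2.36% and 2.42% in the latter. The part of podocyte RNA in these levels was not tested. The thick ascending limb-like cluster also had Slc12a3, a distal convoluted tubule marker, among its leading genes. At resolution 2 there were 84 thick ascending limb-like and 75 distal convoluted tubule-like cells. Of the podocyte markers, 0 were detected in the former cluster and 14 in the latter.

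Inf2 encodes a formin that both builds and severs filaments and is mutated in dominant forms of the same disease. It was at 94.8 and 81.5 CPM in podocyte-like cells, 15.2 and 8.67 CPM in parietal-like, 22.0 and 4.92 CPM in mesangial-like, 38.5 and 32.8 CPM in endothelial-like and 12.6 and 15.5 CPM in tubule-like cells. Endothelial-like cells were next to podocyte-like cells in both libraries, and the other 3 classes overlapped. The log2 difference was 3.06 (SE 0.36), 2.79 (SE 0.31), 1.48 (SE 0.26) and 2.61 (SE 0.32) against parietal-, mesangial-, endothelial- and tubule-like cells, with edgeR adjusted p of 6.63e-05 to 0.00137. When the cells holding podocyte RNA were left out they were 3.35, 4.53, 1.64 and 5.18, so the difference from endothelial-like cells was the one that moved least with the choice of cells. The classes outside podocytes held few Inf2 UMIs, from 8 in the mesangial-like and 8 in the parietal-like cells of the library labelled male to 93 in the endothelial-like cells of the one labelled female.

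**Figure D2:**
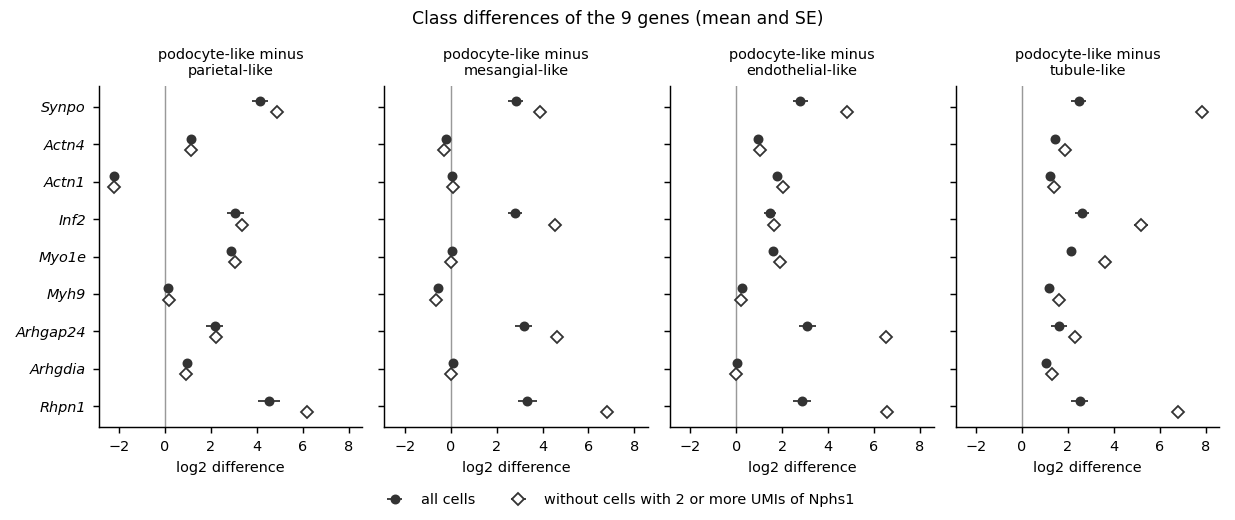
Log2 difference (x axis, mean and SE from the edgeR fit over both libraries) of podocyte-like cells minus each of the other 4 classes for the 9 genes. Filled circles use all cells, and open diamonds leave out other cells with 2 or more UMIs of Nphs1. Synpo and Rhpn1 move farthest against tubule-like cells, to 7.83 and 6.78, while Actn1 against parietal-like cells is at −2.22 without those cells.

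The genes of the second pattern were at similar or higher levels in mesangial-like cells, the pericyte-like cells that hold the capillary loops. Actn4, the alpha-actinin that crosslinks foot process filaments and is mutated in dominant glomerulosclerosis, was at 698 and 813 CPM in podocyte-like and 877 and 1113 CPM in mesangial-like cells, a log2 difference of −0.20 (SE 0.12, edgeR adjusted p = 0.172). That difference passed the threshold under 4 of the alternatives, at −0.40 (adjusted p = 0.0148) with totals in place of TMM scaling. Actn4 was higher in podocyte-like cells than in parietal-like (383 and 436 CPM, log2 1.11, SE 0.12), endothelial-like (450 and 413 CPM, log2 0.96, SE 0.12) and tubule-like cells (302 and 271 CPM, log2 1.42, SE 0.12), with edgeR adjusted p of at most 1.53e-05. The Nphs1 UMIs of the 4 classes would bring 24.1 to 134 CPM of Actn4 with them. Once the cells holding podocyte RNA were left out, the differences were 1.12, −0.30, 1.04 and 1.86 against parietal-, mesangial-, endothelial- and tubule-like cells.

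Myo1e, a single-headed myosin that ties filaments to the membrane and is mutated in childhood glomerulosclerosis, was at 475 and 445 CPM in podocyte-like and 475 and 535 CPM in mesangial-like cells. The difference was 0.06 (SE 0.13, edgeR adjusted p = 0.749) and its sign depended on the scaling. Against parietal-like cells (85.6 and 58.5 CPM) it was 2.88 (SE 0.15), against endothelial-like cells (176 and 167 CPM) 1.58 (SE 0.14), and against tubule-like cells (122 and 95.0 CPM) 2.12 (SE 0.14), with edgeR adjusted p of at most 4.45e-07. With the cells holding podocyte RNA left out, the tubule-like level was 35.4 and 39.0 CPM and the difference 3.61, and the parietal, mesangial and endothelial differences were 3.06, 0.0048 and 1.91. Myo1e therefore had 2 high classes, podocyte- and mesangial-like cells.

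Myh9, the heavy chain of non-muscle myosin IIA that drives filament contraction, was the member lowest in podocyte-like relative to mesangial-like cells. It was at 679 and 642 CPM in podocyte-like and 974 and 1225 CPM in mesangial-like cells, a log2 difference of −0.55 (SE 0.14, edgeR adjusted p = 0.00766). In parietal-like cells (690 and 718 CPM) and endothelial-like cells (687 and 563 CPM) it did not differ past the threshold, at 0.13 (SE 0.14, edgeR adjusted p = 0.468) and 0.24 (SE 0.14, edgeR adjusted p = 0.183). The sign of the parietal difference turned with totals in place of TMM scaling. Tubule-like cells (342 and 264 CPM) were lower, with a difference of 1.15 (SE 0.15, edgeR adjusted p = 5.15e-05), and within them proximal tubule-like cells held only 79.4 and 56.3 CPM. The endothelial difference passed the threshold (0.30, edgeR adjusted p = 0.0381) when the 5% of cells with the highest Scrublet doublet scores were left out. Leaving out the cells holding podocyte RNA gave 0.16, −0.64, 0.20 and 1.59 against parietal-, mesangial-, endothelial- and tubule-like cells.

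Arhgdia, the inhibitor that keeps RhoA, Rac1 and related GTPases in the cytosol and is lost in a congenital nephrotic syndrome, was the most evenly spread of the 9 genes. It was at 308 and 309 CPM in podocyte-like, 361 and 295 CPM in mesangial-like and 367 and 304 CPM in endothelial-like cells, and neither difference passed the threshold (0.11, SE 0.11, edgeR adjusted p = 0.452, and 0.04, SE 0.11, edgeR adjusted p = 0.772). Both signs turned with totals or DESeq2 size factors in place of TMM. Arhgdia was lower in parietal-like (184 and 191 CPM) and tubule-like cells (159 and 149 CPM), with differences of 0.95 (SE 0.12) and 1.02 (SE 0.12) and edgeR adjusted p of 1.61e-05 and 5.80e-06. With the cells holding podocyte RNA out, the differences were 0.93, 0.03, −0.03 and 1.30 against parietal-, mesangial-, endothelial- and tubule-like cells. In endothelial-like cells the mesangial markers summed to 1255 CPM (labelled female) and 141 CPM (labelled male), and their part in the endothelial levels of Arhgdia and Myh9 was not tested.

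Actn1, the other non-muscle alpha-actinin, also found at focal adhesions, had a class order unlike that of Actn4. It was at 92.5 and 98.4 CPM in podocyte-like and 482 and 556 CPM in parietal-like cells, a log2 difference of −2.21 (SE 0.12, edgeR adjusted p = 5.32e-09) that was −2.22 without the cells holding podocyte RNA. Among cells thinned to 3000 UMIs, 22.9% and 24.7% of podocyte-like cells held an Actn1 UMI, against 79.2% and 77.6% of parietal-like cells (60.4% and 59.5% against 98.6% and 93.9% at full depth, where parietal-like medians were 17728 and 14537 UMIs). Endothelial-like cells gave the lowest such level, 3.05% and 8.14% (22.3% and 19.8% at full depth, at medians of 8753 and 6953 UMIs). The parietal-like values were the highest of the 5 classes in both libraries. Mesangial-like cells, at 98.0 and 113 CPM, did not differ past the threshold from podocyte-like cells (0.06, SE 0.12, edgeR adjusted p = 0.715), and the sign turned with the scaling. Endothelial-like (33.9 and 27.8 CPM) and tubule-like cells (43.7 and 39.7 CPM) were lower, at 1.76 (SE 0.14) and 1.22 (SE 0.13). The last 3 differences were 0.12, 2.03 and 1.41 without the cells holding podocyte RNA. A small cluster of smooth muscle or renin-like cells, 44 and 62 in number and outside the 5 classes, held 527 and 606 CPM. The 11 markers of that type summed to 2620 and 3954 CPM in parietal-like cells, against 197 and 141 CPM in podocyte-like cells. Most of that sum was Tagln (2136 and 3295 CPM) and Acta2 (396 and 600 CPM), while Myh11 was at 2.82 and 0 CPM, and 2 and 7 of the 11 were at 0. Their part in the Actn1 level was not tested.

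Splitting the mixed classes showed where the podocyte-high genes sat. Synpo was at 70.4 and 61.4 CPM in glomerular endothelial-like cells and at 485 and 438 CPM in arterial endothelial-like cells, where Nphs1 reached 1.93% and 3.50% of its podocyte level in the glomerular and 24.8% and 25.3% in the arterial cells. Rhpn1 was at 15.4 and 22.8 CPM in the glomerular and 178 and 214 CPM in the arterial cells. Arhgap24 was at 27.9 and 30.0 CPM and at 220 and 200 CPM. All 3 genes thus followed the Nphs1 signal between these clusters. Inf2 did not, with 35.9 and 37.1 CPM in glomerular and 41.8 and 29.4 CPM in arterial endothelial-like cells.

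For context, 136 other actin genes in 5 lists were counted in the same fit, of which 123 were tested. Against the mean of the other 4 classes, 46 were higher and 45 lower in podocyte-like cells (37.4% and 36.6%), where 32.2% and 24.7% of all genes were, and their median log2 difference was −0.09 beside 0.05 over all genes. The 9 foot process genes had 7 higher and none lower, with a median of 1.66. So podocyte-like cells held some actin genes at high and about as many at low levels. Among crosslinkers and bundlers 5 of 18 were higher and 11 lower, with a median of −2.62. The higher ones were led by Ablim3 (3.34, SE 0.16), Palld (1.99, SE 0.21) and Pdlim2 (1.62, SE 0.10), which were at 6.22, 3.65 and 2.49 without the cells holding podocyte RNA, and the lower ones by Ablim1 (−5.99, SE 0.16), Pls1 (−5.48, SE 1.02) and Lcp1 (−5.13, SE 1.34). Lcp1, a leukocyte plastin, no longer passed the threshold without those cells (edgeR adjusted p = 1). Palld, which encodes palladin, was at 896 and 1127 CPM in parietal-like cells, above its 875 and 757 CPM in podocyte-like cells, so its difference came from the other 3 classes. Pdlim2 was at 348 and 265 CPM in mesangial-like cells, above its 264 and 254 CPM in podocyte-like cells.

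Myosins and tropomyosins were split evenly, with 6 of 22 higher and 6 lower and a median of −0.10. Myo1d (1.49, SE 0.10), Mylk (1.37, SE 0.12) and Myo6 (1.31, SE 0.08) led the higher ones, at 1.94, 2.09 and 1.55 without those cells, while the lower ones included Tpm2 (−3.01, SE 0.51) and Myo5a (−2.64, SE 0.18). Mylk, myosin light chain kinase, and Myo1d were like Myo1e in being high in mesangial-like cells as well, at 819 and 888 CPM and at 487 and 575 CPM. Of the formins, nucleators and turnover factors, 10 of 31 were higher and 13 lower, with a median of −0.14. Tmod3, a pointed-end cap, led at 2.42 (SE 0.08), followed by the formins Daam2 (2.21, SE 0.08) and Fmnl2 (1.82, SE 0.09). Without those cells Daam2, at 3.73, was ahead of Tmod3 at 3.33 and Fmnl2 at 2.31. With all cells Daam2 was at 284 and 291 CPM in mesangial-like cells, near its 284 and 266 CPM in podocyte-like cells. Its difference thus came from the other 3 classes. The formins Fmnl3 (−4.22, SE 0.18) and Fhod3 (−3.27, SE 0.51) and the filament elongation factor Evl (−2.63, SE 0.20) were the lowest, so formins stood at both ends. Fhod3 was at 76.0 and 64.0 CPM in parietal-like and 41.8 and 61.3 CPM in tubule-like cells. In mesangial- and endothelial-like cells it was at no more than 1.85 CPM, near its 0.578 and 1.01 CPM in podocyte-like cells.

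Of the small GTPases and their regulators, 12 of 28 were higher and 9 lower, with a median of −0.02. The higher ones were led by Srgap1 (3.04, SE 0.22), Arhgap28 (2.92, SE 0.17) and Kank1 (2.697, SE 0.21). Leaving out the cells holding podocyte RNA put Arhgap28 first, at 5.37, before Srgap1 at 5.19 and Kank1 at 4.52. Srgap1, a GTPase-activating protein, was at 894 and 897 CPM in podocyte-like cells and at no more than 172 CPM elsewhere. Kank4 (−6.44, SE 0.57), Arhgdib (−5.51, SE 0.49) and Anln (−3.86, SE 0.74) were the lowest. Arhgdib is the blood cell relative of Arhgdia and was at 0.929 and 0.382 CPM in podocyte-like cells. Anln was not tested without the cells holding podocyte RNA. Of the actin isoforms and adaptors to the slit diaphragm or matrix, 13 of 24 were higher and 6 lower, with a median of 0.57. Ezr (2.01, SE 0.24), Nck2 (1.99, SE 0.10) and Parva (1.99, SE 0.08) led the higher ones, at 3.40, 2.65 and 2.59 without the cells holding podocyte RNA, and Msn (−1.85, SE 0.10), Tln2 (−1.17, SE 0.14) and Zyx (−1.15, SE 0.11) were the lowest. Ezrin and moesin, which link membrane to actin in the same way, were thus on opposite sides of the mean of the other classes. In tubule-like cells, however, Msn was at 86.2 and 74.2 CPM, near its 88.4 and 78.5 CPM in podocyte-like cells. Zyx was also near its podocyte-like level there, at 30.5 and 25.0 against 35.8 and 25.9 CPM. Tln2 was highest in tubule-like cells, at 104 and 97.1 CPM. Ezr was at 478 and 456 CPM in parietal-like cells, against 659 and 707 CPM in podocyte-like cells.

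The 5391 genes at 50 CPM or more in at least 1 class of each library were ranked by likeness to each member, by Pearson r of log2(CPM + 10) over the 10 class sums. These r values share library, depth and carried-over podocyte RNA and are descriptions. Synpo was closest to E2f1 (r = 0.998) and Magi2 (r = 0.994), with 103 genes above 0.95, and Rhpn1 to Tdrd5 and Shisa3 (r = 0.996 each), with 100 genes. Magi2 and Tdrd5 are among the podocyte markers used here. Arhgap24 was closest to Sdc4 (r = 0.987) and Mtcl1 (r = 0.985), with 33 genes above 0.95. The other 6 had 12 to 21 such genes: Actn4 was closest to Maml3 and Spcs2, Actn1 to Cdk6 and Tagln, Inf2 to Mob2 and Gas7, Myo1e to Anxa1 and P2rx4, Myh9 to Gm16286 and Fermt2, and Arhgdia to Rab7 and Nkap.

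Among podocytes, 1 small cluster stood apart for Synpo, Actn1, Arhgap24 and Rhpn1. The 8 podocyte-like clusters were formed from other genes of the same cells, so their tests describe these clusters and give no independent evidence that such groups exist. Over the 8 clusters all 9 genes passed the edgeR F-test, where 51.7% of 11442 genes did, with log2 spreads between the lowest and the highest cluster from 0.29 for Actn4 to 1.78 for Actn1. The cluster led by Cst12, Igfbp6 and Dkk3, with 143 and 99 cells, lay at the extreme for Synpo, Actn1, Arhgap24, Arhgdia and Rhpn1 in both libraries. Without it 7 of the 9 genes passed, where 38.8% of 10856 genes did, and Arhgdia (edgeR adjusted p = 0.0779) and Rhpn1 (edgeR adjusted p = 0.531) did not.

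In the Cst12 cluster Rhpn1 was at 232 and 237 CPM, against 640 to 735 CPM and 616 to 808 CPM in the other 7 clusters of the libraries labelled female and male. Synpo was at 933 and 972 CPM there, against 1528 to 1761 CPM and 1533 to 1687 CPM. Arhgap24 was at 443 and 483 CPM, against 856 to 955 CPM and 870 to 1023 CPM. Rhpn1, Synpo and Arhgap24 were thus lower, with no overlap. Actn1 was the opposite, at 248 and 236 CPM against 62.4 to 114 CPM and 75.0 to 127 CPM. Inf2, also higher in podocyte-like cells than in each other class, did not drop in this way. In the library labelled female another cluster was lowest for it. In that labelled male it was at 74.1 CPM in the Cst12 cluster and at 75.2 CPM in the next lowest. In the same cluster Nphs1 was at 919 and 858 CPM, against 1378 to 1757 CPM and 1281 to 1640 CPM in the other 7. Markers of other cells were higher there, with the parietal genes Akap12 at 464 and 419 CPM, Cldn1 at 135 and 119 CPM and Pax8 at 81.6 and 78.1 CPM, and the mesangial gene Pdgfrb at 142 and 204 CPM. In the other 7 clusters these 4 genes were at no more than 27.5, 28.2, 21.5 and 31.6 CPM. Wt1, a podocyte transcription factor, was at 963 and 909 CPM, within or just under the range of the other clusters, and the endothelial gene Cdh5 at no more than 1.92 CPM. The part of mixed or other cells in these levels was not tested.

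**Figure D3:**
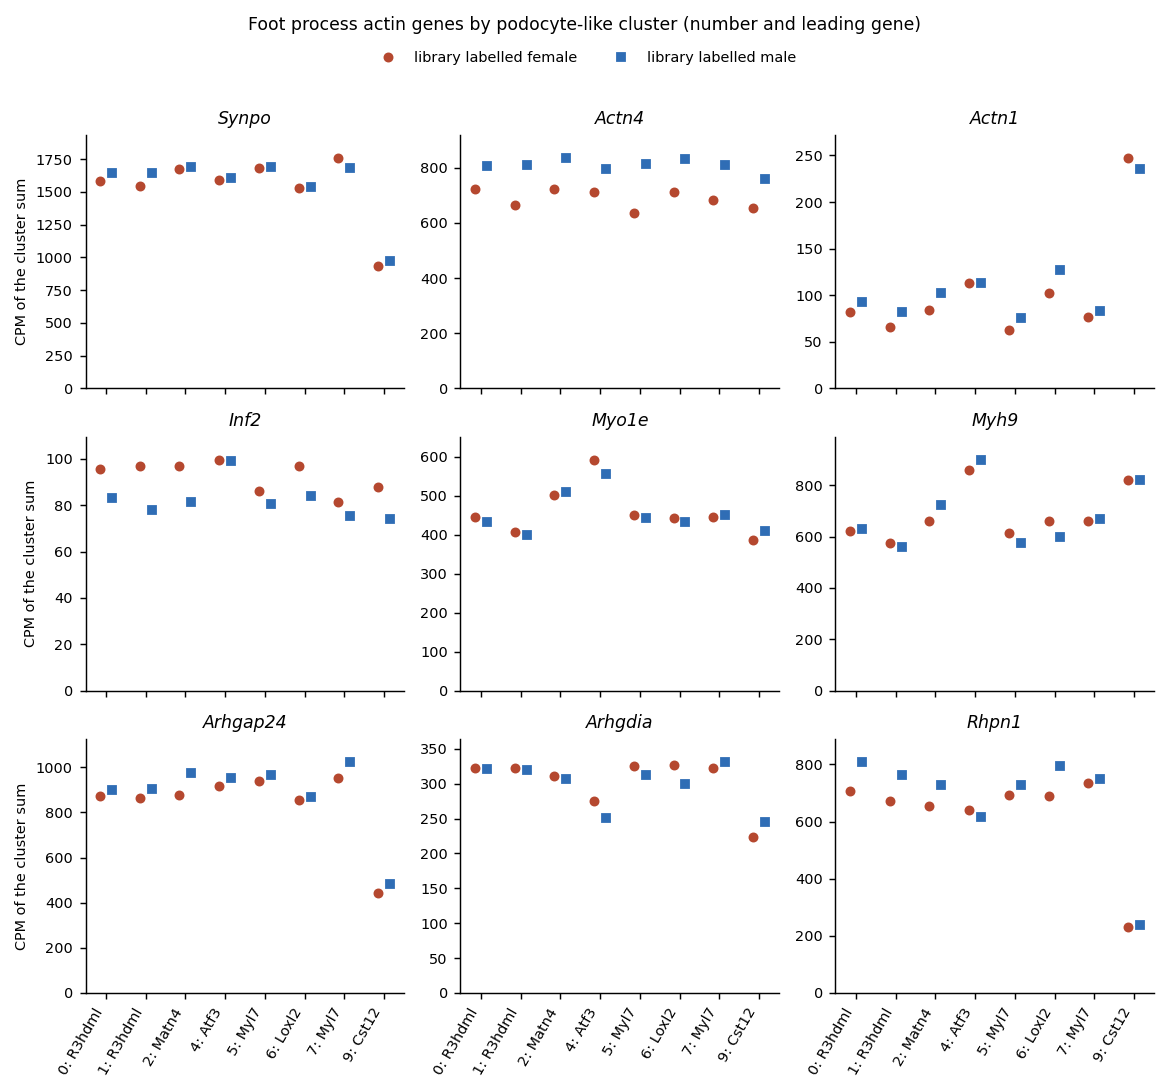
CPM of each gene in the 8 podocyte-like clusters (number and leading gene on the x axis) of the libraries labelled female (circles) and male (squares), with each y axis starting at 0. Rhpn1, Synpo and Arhgap24 drop and Actn1 is highest in the cluster led by Cst12, and Myo1e and Myh9 are highest in the cluster led by Atf3.

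The myosins were highest in another cluster. In the cluster led by the early-response genes Atf3 and Nr4a1, Myh9 was at 858 and 898 CPM, against 575 to 822 CPM and 560 to 822 CPM in the other 7 clusters. Myo1e was at 591 and 554 CPM there, against 387 to 502 CPM and 399 to 510 CPM. Both were the highest of the 8 clusters in both libraries. Without the Cst12 cluster their spreads were 0.79 for Myh9 and 0.68 for Myo1e, the highest of the 9 after the 0.91 of Actn1. In CPM, Arhgdia, at 275 and 251, and Rhpn1, at 640 and 616, were lower in this cluster than in each other cluster apart from the Cst12 one. Neither gene passed the F-test without the Cst12 cluster (edgeR adjusted p = 0.0779 and 0.531). Their log2 spreads on the TMM scale were then only 0.152 and 0.0952. A larger cluster, with 697 and 385 cells and led by Matn4, Ier2 and Egr2, also had early-response genes among its leading genes, Egr1, Jun, Atf3, Fosb, Fos and Nr4a1. It is 1 of the other 7, so its myosin levels lay within the ranges given for them. Fos was at 9555 and 9792 CPM in the cluster led by Atf3, against 356 and 547 CPM in one of the 2 clusters led by Myl7. The share of the Atf3-led cluster among podocyte-like cells was 17.3% in the library labelled female and 5.55% in that labelled male. The part of the early-response state in the myosin levels was not tested.

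With the Cst12 cluster included, Actn4 and Inf2 had the smallest log2 spreads across the clusters, 0.29 and 0.44. Without it the smallest were those of Rhpn1 (0.0952) and Arhgdia (0.152), while Actn4 was at 0.206 and Inf2 at 0.444. Actn4 was at 636 to 723 CPM in the library labelled female and 759 to 836 CPM in that labelled male, and Inf2 at 81.6 to 99.5 CPM and 74.1 to 98.9 CPM. Their F-tests passed with the library as a block and not without it (edgeR adjusted p = 0.744 and 0.0583). In the smaller of the 2 clusters led by Myl7 and Mylk3, a light chain and a light chain kinase best known from heart muscle, Arhgap24 was at 955 and 1023 CPM, the highest of the 8 in both libraries.

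In single podocyte-like cells thinned to 3000 UMIs the median count was 4 and 5 UMIs for Synpo in the libraries labelled female and male, 2 and 2 for Actn4, Myh9 and Rhpn1, 2 and 3 for Arhgap24, 1 and 1 for Myo1e and Arhgdia, and 0 and 0 for Actn1 and Inf2. Synpo was missing from 1.86% of cells in each library. Among the 9 genes the variance of Pearson residuals at full depth, which is near 1 where cells differ by counting alone, was highest for Myh9. It was 3.06 and 2.07, above 96.7% and 95.7% of the genes at 50 CPM or more, whose medians were 1.11 and 1.11. Without the Cst12 cluster it was 2.60 and 1.999. Inf2 (1.11 and 1.08) and Arhgdia (1.12 and 1.12) were at the median, and Synpo, Rhpn1, Arhgap24 and Myo1e lay between 1.501 and 2.03. Actn1, a gene of low level like Inf2, was at 1.51 and 1.32. Where cells differ by more than counting, this variance also grows with the level of a gene. The order of genes at unlike levels is therefore no ranking of how much they vary between cells.

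**Figure D4:**
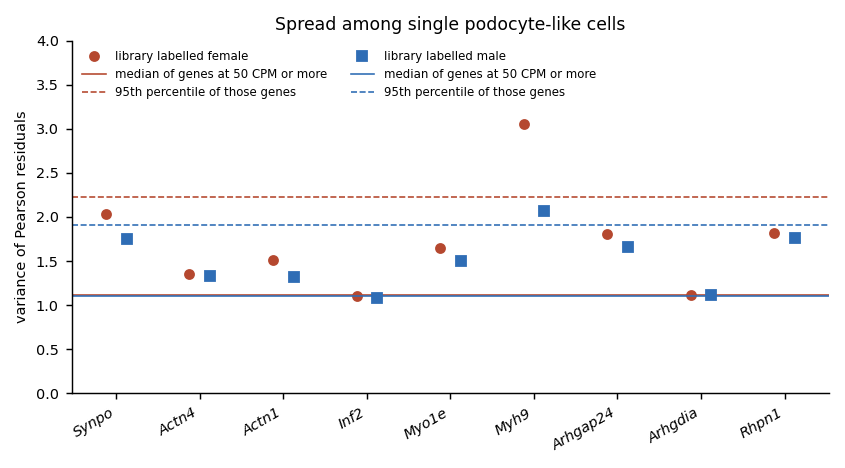
Variance of Pearson residuals over single podocyte-like cells at full depth (y axis) for the 9 genes in the libraries labelled female (circles) and male (squares). Solid and dashed lines are the median and the 95th percentile over genes at 50 CPM or more. Myh9, at 3.06 and 2.07, is the only one of the 9 above the dashed line of its library.

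The genes were only weakly related from cell to cell. Over the 36 pairs the Pearson r of the residuals ran from −0.14 to 0.19 in the library labelled female and from −0.10 to 0.15 in that labelled male, with medians of 0.04 and 0.03. The pair Myo1e and Myh9 was at 0.19 and 0.12, and at 0.23 and 0.12 without the Cst12 cluster, the highest of all pairs there. Pairs of Synpo with Arhgap24 (0.17 and 0.15) and of Synpo with Rhpn1 (0.15 and 0.12) were under 0.10 without that cluster. In counts this sparse such values say little about single cells.

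Between the libraries the podocyte-like levels differed by less than 1.5-fold for all 9 genes, where 1.08% of 6189 genes were higher and 0.420% lower past that fold. Inf2 had the highest ratio, labelled female over labelled male, at 1.16 (95% interval 1.11 to 1.22), and Actn4 the lowest, 0.859 (0.845 to 0.872). The intervals cover counting error only. With 1 mouse a library no difference between the mice can be tested. Outside podocytes 7 of 36 ratios were past 1.5-fold with a level of 20 CPM or more in at least 1 library. In mesangial-like cells Inf2 (4.48), Arhgap24 (2.36), Rhpn1 (2.19) and Synpo (2.04) were higher in the library labelled female, where 5.50% of genes were higher and 4.95% lower. Nphs1 was also higher there, at 14.6% of its podocyte level against 5.12%, and without the cells holding podocyte RNA no member at 20 CPM or more was past 1.5-fold in mesangial-like cells. In parietal-like cells Synpo (1.56) and Rhpn1 (1.54) were higher (6.81% of genes higher, 5.28% lower), and in endothelial-like cells Rhpn1 was lower (0.665, with 3.80% of genes lower and 4.76% higher). None was past 1.5-fold in tubule-like cells, where 5.50% of genes were higher and 5.80% lower. With those cells left out, no member at 20 CPM or more was past 1.5-fold in these classes either. The shares of all genes higher and lower were then 9.19% and 7.17% in parietal-like, 3.51% and 5.22% in mesangial-like, 7.10% and 5.15% in endothelial-like and 8.37% and 9.60% in tubule-like cells.

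By the mouse annotation GENCODE M21 on GRCm38, all 9 are protein-coding genes. Actn4 lies at chr7:28893248-28962340, Actn1 at chr12:80167547-80260371, Inf2 at chr12:112588784-112615557, Myo1e at chr9:70207350-70399766 and Myh9 at chr15:77760587-77842175. Arhgap24 lies at chr5:102481391-102897937, Arhgdia at chr11:120578104-120581624 and Rhpn1 at chr15:75704280-75715485. Whether strand was used in counting is unknown, so reads of overlapping genes could be shared. Actn4 overlaps Capn12, Actn1 overlaps Gm47767 and Gm47766, and Arhgap24 overlaps 1700013M08Rik, and these 4 were at no more than 2.66 CPM in any class.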

How the data were processed

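Each deposited matrix holds unnormalized UMI counts by gene and barcode, as integers per the file headers. Per the submitters' processing notes, Cell Ranger 6.1.2, STAR 2.7.5a and the build mm10 were used, with no role named. Barcode filter, annotation and strand setting were not given in the sources used here. Per the labels' protocols, 3′ libraries were made by 10x Genomics methods.

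Barcodes with over 20% mitochondrial UMIs or under 500 genes were left out, leaving 9351 of 10207. Cells of both libraries were clustered together (scanpy 1.11.5, leidenalg 0.10.2) on 2000 variable genes, 30 components and 20 neighbours at resolution 1, without the 9 genes and the 136 other actin genes. A marker counted for a cluster when over 20% of its cells held it, at 50 CPM or more and over 2 times the lower quartile of the clusters. A cluster took the name with the highest mean marker level among types with 3 or more such markers, and stayed unnamed where another type or cell cycle genes led it (2 clusters, with 431 and 523 cells with podocyte markers led by haemoglobin genes and 23 and 11 cycling cells). The rule for names was written with the clusters in view. Scrublet called only 2 and 1 cells and did not work here, so doublets were not removed. Mixed cells were handled by leaving out other cells with 2 or more UMIs of Nphs1, an alternative chosen after seeing the data. Some items, a planned cell filter among them, are not reported here.

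UMIs were summed per library and class and tested with edgeR 4.0.16 (R 4.3.3; TMM, filterByExpr, robust quasi-likelihood fit, Benjamini-Hochberg adjustment over all genes tested), with the library as a block because all classes of a library come from 1 mouse. With the block, the p-values rest on how far class differences disagree between these 2 libraries, with the spread estimated partly over all genes. The same design served an F-test over the 8 podocyte-like clusters. CPM are UMIs per 1000000 of the class sum, with a prior of 10 CPM where logs are taken outside the fits. Ratios between libraries use genes at 20 CPM or more and 1.5-fold. Poisson, Clopper-Pearson and conditional binomial intervals are exact at 95% and cover counting error only. Cells were thinned to 3000 UMIs for shares and counts per cell, and residuals were taken at full depth. The fits were tested on simulated data. Alternatives were DESeq2 1.42.0, other scalings, filters, clusterings and cell sets.

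The 9 genes, the actin lists and the markers were chosen with earlier results of these data known. From each actin list the text names, of those reported, the 3 genes with the largest difference in each direction among those past the threshold, podocyte-like cells against the mean of the other 4 classes, and for each member the 2 genes of highest likeness.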

Additional observations from a re-analysis of the deposited data

Results flagged for a closer look

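For 4 differences between podocyte-like cells and another class, the 2 libraries lay on opposite sides of 0. Each rests on 1 value a library on the TMM scale, and the difference between the libraries was not tested. Actn1, podocyte-like minus mesangial-like cells, was at a log2 difference of 0.114 in the library labelled female and −0.0327 in that labelled male. Myo1e, against the same class, was at 0.198 in the library labelled female and −0.104 in that labelled male. Arhgdia, again against mesangial-like cells, was at −0.034 in the library labelled female and 0.227 in that labelled male. Against endothelial-like cells Arhgdia was at −0.0915 in the library labelled female and 0.152 in that labelled male. Mesangial markers summed to 1255 CPM and 141 CPM in the endothelial-like cells of these libraries, and their part in that difference was not tested. None of the 4 passed the threshold over both libraries.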

How the results depend on the processing

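Of 36 class differences of the 9 genes, 29 passed the threshold, and 28 of these kept their direction under each of the 15 alternatives that gave them a value. The exception was Actn1 against tubule-like cells, which turned to −1.85 at a mitochondrial limit of 10%. At that limit no parietal-like class was left, because its cluster took the proximal tubule name by its markers, and Myh9 against tubule-like cells fell under the threshold at 0.23. Of the differences that had not passed, 5 turned sign. Actn1 minus mesangial was −0.077 with DESeq2, −0.14 with totals, −0.15 at resolution 0.5, and −0.033 to 0.11 with 1 library left out. Myo1e minus mesangial was −0.079 with DESeq2, −0.14 with totals, −0.045 at resolution 0.5, −0.030 at a mitochondrial limit of 50%, −0.091 in cells thinned to 3000 UMIs and −0.10 to 0.20 with 1 library left out. Myh9 minus parietal was −0.095 with totals and −0.025 at resolution 0.5. The parietal-like cluster at resolution 0.5 was another set of cells, 231 and 189 in number. It was led by Dkk3 and Cst12, and 12 podocyte markers were detected in it, against 0 in the main parietal-like cluster. Arhgdia minus mesangial was −0.029 with DESeq2, −0.088 with totals and −0.034 to 0.23 with 1 library left out. Arhgdia minus endothelial was −0.099 with DESeq2, −0.12 with totals, −0.066 at resolution 0.5, −0.0084 at resolution 2, −0.049 at a mitochondrial limit of 50%, −0.033 without other cells holding Nphs1 and −0.091 to 0.15 with 1 library left out.

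Members lower than in mesangial-like cells numbered 2 rather than 1 with totals, at a limit of 50%, without the highest Scrublet scores and in thinned cells, and members lower than in tubule-like cells 1 rather than 0 at a limit of 10%. Actin list genes lower than in tubule-like cells numbered 48 at a limit of 10% and 17 in thinned cells, rather than 29. Without the replicate block (the library) the counts of the 9 genes by class were equal to those with it, and 7 of the 9 genes rather than 9 passed among podocyte-like clusters. For the ratio of the library labelled female over that labelled male, Synpo in parietal-like cells turned to −0.27 (log2) at resolution 0.5, −0.12 in thinned cells and −0.29 without cells holding Nphs1. Rhpn1 in parietal-like cells turned to −0.51 at resolution 0.5 and −0.10 at a limit of 50%, in mesangial-like cells to −0.066 without cells holding Nphs1, and in endothelial-like cells to 0.87 without the highest Scrublet scores. At resolution 0.5 these parietal-like values are for the larger cluster led by Dkk3 and Cst12. Members at 20 CPM or more past 1.5-fold in parietal-like cells numbered 0 at resolution 0.5, at a limit of 50%, without the highest Scrublet scores and without cells holding Nphs1, and 1 in thinned cells, rather than 2. In mesangial-like cells they numbered 0 rather than 4 at resolution 2, without the highest Scrublet scores and without cells holding Nphs1. In endothelial-like cells they numbered 0 at a limit of 50% and without cells holding Nphs1, 2 in thinned cells and 4 without the highest Scrublet scores, rather than 1, and in tubule-like cells 1 at a limit of 10% and 3 in thinned cells, rather than 0. The causes were not tested. The choices on the Cst12 cluster and on the cells holding Nphs1 (2 or more UMIs) were made after seeing the data. Outside podocytes each class held under 250 cells a library, which limits the precision of every value there.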
